A study of Mus musculus with 4 samples.

Results

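The genes described here are the mouse zinc finger genes whose symbol is Zfp followed by a digit and which were well counted in every library of a study of choline supply. Of 22328 genes listed in the deposited tables, 362 carried such a symbol, and 161 of them had at least 200 reads in each of the 4 libraries. The read minimum is a measured value, so the level of these 161 genes is part of how they were chosen. The rule uses no difference between a treated and a control library, but the group was proposed with earlier results of these data known.

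A zinc finger of the C2H2 type is a short fold in which a pair of cysteines and a pair of histidines hold a zinc ion, and a row of such fingers reads a stretch of DNA. Many mammalian genes of this kind also encode a KRAB domain, which binds the corepressor Trim28 (KAP1) and so recruits the histone methyltransferase Setdb1 and HP1 proteins to silence chromatin, often at retrotransposons. KRAB zinc finger genes arose by repeated local duplication and lie in clusters in the genome. Other Zfp-named genes encode promoter-binding activators, chromatin-associated proteins, RNA-binding proteins or ligases, so the shared name covers several roles.

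Poly(A)-selected RNA was sequenced from 2 hippocampus samples and from 2 cultures of HT22, an immortalised mouse hippocampal neuronal cell line, with 1 library per group. F1m-GCS offspring came from dams whose diet held 5 g/kg choline chloride between embryonic day 9 and birth, F1m-CON offspring from dams whose diet held 1.1 g/kg, and the offspring of both groups ate a basal diet and were tested for behaviour at 2 months. HT22 cells were kept for 48 h with choline chloride at 5 µM (CON) or 70 µM (SUP). The sources used here name no strain or genotype and do not say whether a hippocampus library is 1 animal or a pool. Reads counted in genes numbered 31175015 in F1m-CON, 30265820 in F1m-GCS, 18305096 in HT22 CON and 13192007 in HT22 SUP. Because each group was 1 library, no difference below has a replicate check. Bracketed ranges are 95% counting intervals of a log2 ratio, which cover counting error only and hold no variation between animals or cultures.

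The summed level of 8 neuronal markers was 9723 and 9794 CPM (read counts scaled to a common library size) in F1m-CON and F1m-GCS, against 72.8 and 190 CPM in HT22 CON and HT22 SUP. Rbfox3, which marks mature neurons, had 15 and 33 reads in the HT22 libraries against 8635 and 8463 in hippocampus, so this defining marker was nearly absent from the line. The 5 choroid plexus markers summed to 1748 CPM in F1m-CON and 1518 CPM in F1m-GCS, most of it Ttr, with a log2 ratio of -0.19. The other 4 lay further below 0, with Aqp1 at -0.79, Kcnj13 at -0.71, Folr1 at -0.52 and Clic6 at -0.52. In F1m-CON and F1m-GCS the 5 astrocyte markers summed to 3669 and 3869 CPM, and the 5 oligodendrocyte markers to 5880 and 5689 CPM. In HT22 CON and HT22 SUP, oligodendrocyte markers summed to 9.576 and 21.007 CPM, microglia to 1.36 and 3.81, and endothelium to 1.03 and 3.81. Astrocyte markers there summed to 229 and 272 CPM. Choroid plexus markers fell from 191 to 135 CPM, though Ttr had 5 and 29 reads, and hippocampal field markers hardly moved. The higher neuronal sum in HT22 SUP was thus not confined to neuronal markers, and its source was not tested. The part of these shifts in the values below was not tested. In bulk tissue, fewer cells of a type and less RNA per cell cannot be told apart.

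The repeated finger is visible in the sequence of Zfp160, which had the highest hippocampus ratio of the 161 genes. In the GENCODE M21 annotation of mm10 its fingers lie in exon 5 of 5, within the coding sequence, on the plus strand of chromosome 17. The first 3 adjoining units of 84 bases are chr17:21025631-21025714, chr17:21025715-21025798 and chr17:21025799-21025882, and capitals mark the 4 codons for the zinc-binding cysteines and histidines.
Zfp160 finger 1: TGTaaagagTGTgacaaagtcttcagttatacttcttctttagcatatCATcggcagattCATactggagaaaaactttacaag
Zfp160 finger 2: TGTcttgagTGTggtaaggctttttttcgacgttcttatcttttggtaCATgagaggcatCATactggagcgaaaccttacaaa
Zfp160 finger 3: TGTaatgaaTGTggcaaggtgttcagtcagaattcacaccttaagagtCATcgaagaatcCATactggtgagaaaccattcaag
The second unit equals the first at 49 of 84 bases and the third equals the first at 55 of 84, while the capital codons keep their places. Reads from such repeats can align to more than 1 gene. Of the 161 genes, 22 shared at least 10% of their coding 50-base words with another gene, and without them the medians over all 161 genes given below were the same to 2 decimals, while the KRAB medians were 0.23 in hippocampus and -0.12 in HT22.

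A C2H2 match was counted in the longest reading frame as 2 cysteines 2 residues apart, then 12 residues, then 2 histidines 3 to 5 residues apart. Fingers with other spacings and CCCH fingers are not counted, and 11 of the 161 genes had no match. A KRAB match was found in 58 of the 161 genes and in 195 of all 362 Zfp-named genes. Coding length ran from 231 to 8097 bases with a median of 1785, against 1431 for the other genes with the same read minimum.

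Of the Zfp-named genes left out, 8 had no read in any library. Both hippocampus libraries alone reached 200 reads for 77 genes, both HT22 libraries alone for 14, and 24 genes missed the minimum through HT22 SUP alone. Just inside the minimum, Zfp748 had 200 reads in its lowest library and log2 ratios of 0.36 in hippocampus and -0.14 in HT22, Zfp113 had 201 reads and ratios of 0.08 and 0.12, and Zfp688 had 203 reads and ratios of -0.15 and 0.04. Just outside it, Zfp952 had 199 reads and ratios of 0.05 and -0.24, Zfp40 had 194 and ratios of 0.96 and 0.14, and Zfp239 had 191 and ratios of -0.04 and 0.04.

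In hippocampus, Zfp-named genes lay higher in F1m-GCS than in F1m-CON as a group, across the whole distribution and most at its upper end. The median log2 ratio of F1m-GCS to F1m-CON was 0.10 over the 161 genes, with a range from -0.33 to 0.89 and 112 of 161 above 0, against -0.0069 over all 7801 genes with at least 200 reads in each library. The middle 50% of the Zfp-named genes lay between -0.02 and 0.24, and that of the 7640 other genes between -0.09 and 0.08. A gene was called higher or lower at a log2 ratio of 0.322 or more from 0, which is 25% higher or 20% lower in the treated library. By that rule 33 of the 161 were higher in F1m-GCS (20.5%), against 4.38% of all 7801 genes, and 1 was lower, against 1.0%. At 1.5-fold 12 were higher, where 0.628% of all genes were, and 0 were lower, where 0.0128% were. The counting intervals of all 33 higher genes excluded 0, and so did those of all 342 higher genes among the 7801. With this read minimum the interval therefore adds nothing to the call.

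In HT22 cells the same genes spread to both sides. The median log2 ratio of SUP to CON was -0.07, with a range from -0.60 to 0.92 and 66 of 161 above 0, against -0.04 over all 7801 genes. By the same rule 17 were higher in SUP (10.6%), against 8.58% of all genes, and 17 were lower, against 9.06%. Both shares lie near those of all genes. At 1.5-fold 9 were higher and 2 lower, where 2.83% and 0.59% of all genes were.

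**Figure D1:**
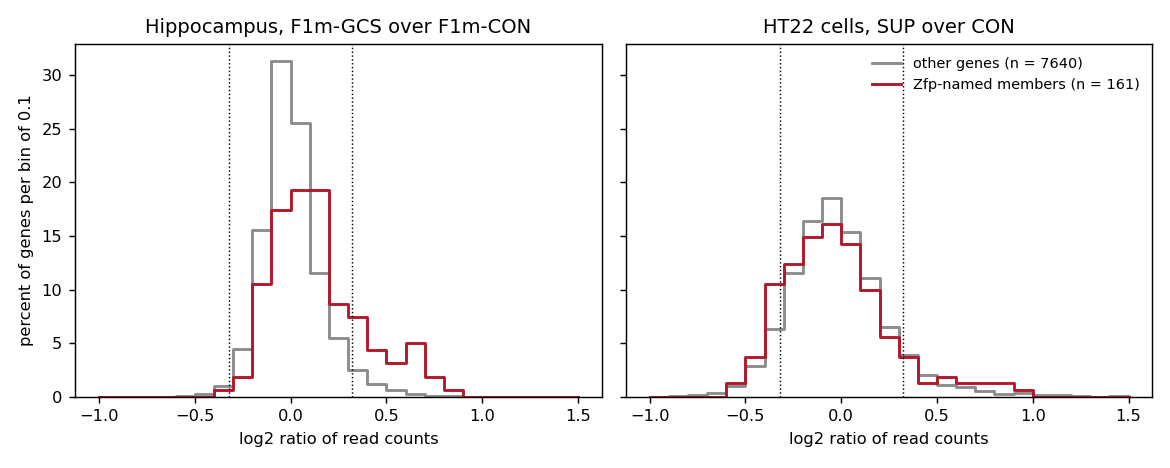
Distribution of log2 ratios of read counts (x axis, treated over control, bins of 0.1) as the percent of genes in each bin (y axis) for the 161 Zfp-named genes (red) and the 7640 other genes with 200 or more reads in each library (grey), 1 library per group. Dotted lines mark log2 ratios of 0.322 in either direction, and the red curve has a shoulder above the right line in hippocampus, which holds 33 genes, and lies close to the grey curve in HT22.

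Longer genes had higher ratios in both comparisons, with Spearman's rho of 0.448 in hippocampus and 0.262 in HT22 over the 7640 other genes. Each gene was therefore also set against other genes of like coding length and level, in 10 length groups by 5 level groups. The median difference of the Zfp-named genes from the median of those like genes was 0.07 in hippocampus and -0.02 in HT22. With 5 groups by GC content of the longest coding transcript added, it was 0.05 and -0.01. The GC groups hold equal numbers of genes and are broad at low GC, where few genes lie, so GC is matched only coarsely there. Related zinc finger families that carry other names gave smaller shares of higher genes in hippocampus. The 25 Zbtb-named genes, whose BTB domain pairs proteins, had medians of 0.05 in hippocampus, with 3 higher and 1 lower, and 0.06 in HT22, with 4 higher and 3 lower. The 9 Zscan- and Zkscan-named genes had medians of 0.14, with 1 higher, and 0.02, with 1 lower. Against genes of like length and level, the hippocampus median was 0.05 for Zbtb-named genes and 0.14 for Zscan- and Zkscan-named genes. With GC groups added these were 0.04 and 0.10. The Zscan and Zkscan medians thus lay above those of the Zfp-named genes. The difference between these families was not tested.

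KRAB matches, which the selection did not use, divided the genes in hippocampus. The 58 genes with a KRAB match had a median log2 ratio of 0.20 in hippocampus, with 21 higher (36.2%), 10 of them at 1.5-fold, and 0 lower. The 103 without a match had a median of 0.03, with 12 higher (11.7%) and 1 lower. In HT22 the order was the other way, with a median of -0.11, 4 higher and 9 lower for the KRAB genes and 0.01, 13 higher and 8 lower for the rest. Against genes of like length and level, the KRAB median was 0.19 in hippocampus and -0.05 in HT22, and with GC groups added it was 0.11 and -0.04. Median transcript GC was 43.4% in the KRAB genes and 50.6% in the others, so GC moved with the KRAB match.

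Genes with more finger matches had higher ratios in hippocampus and lower transcript GC. Median log2 ratios there were -0.09 in the 11 genes with no match, 0.01 in 35 with 1 to 4, 0.08 in 46 with 5 to 9, 0.12 in 42 with 10 to 14 and 0.23 in 27 with 15 or more. In the last group 12 of 27 were higher (44.4%). In HT22 the same 5 groups had medians of -0.02, -0.06, 0.01, -0.11 and -0.07, with no such order. Median transcript GC was 52.3%, 49.6%, 48.3%, 46.1% and 43.9% in these groups. Against genes of like length, level and GC, their hippocampus medians were -0.06, -0.01, 0.05, 0.08 and 0.07. The group with 15 or more was then no longer the highest.

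GC content moved most closely with the hippocampus ratio. Across the 161 genes Spearman's rho between transcript GC and the hippocampus log2 ratio was -0.687, against -0.265 over 7576 other genes. These genes share libraries and base composition, so the coefficients are descriptions. In HT22 the coefficient had the opposite sign, 0.335 in the Zfp-named genes and 0.176 in the others.

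Split into 4 equal groups by GC, a division chosen after the values were seen, the 41 Zfp-named genes of lowest GC (35.95% to 41.48%) had a hippocampus median of 0.42, with 28 higher (68.3%). Other genes in that GC range also lay higher, with a median of 0.16 and 143 of 604 higher (23.7%). In the next group, 41.57% to 48.17%, 5 of 40 were higher (12.5%) with a median of 0.12, against 5.25% of 2380 other genes with a median of 0.02. In each of the upper 2 groups, which start at 48.56% and 53.76% GC, 0 of 40 Zfp-named genes were higher, against 16 of 2077 (0.77%) and 8 of 2270 (0.35%) of the other genes. HT22 medians over the 4 groups, from low to high GC, were -0.15, -0.11, -0.06 and 0.06 for the Zfp-named genes and -0.10, -0.08, -0.04 and 0.01 for the others. The part of GC content in the hippocampus result was not tested.

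**Figure D2:**
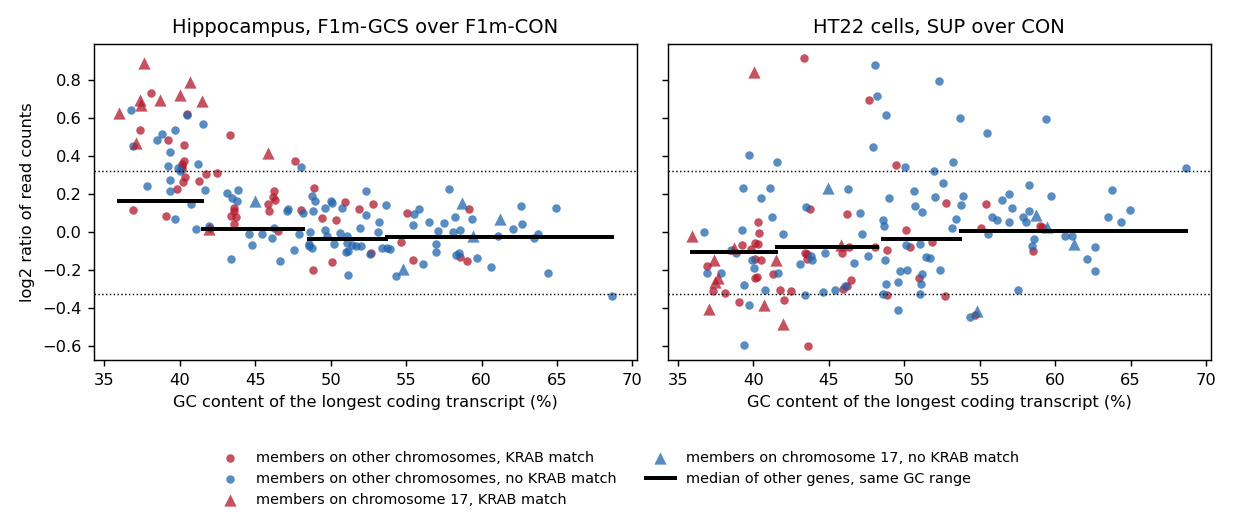
Log2 ratio of read counts (y axis) of each of the 161 Zfp-named genes against the GC content of its longest coding transcript in percent (x axis), with KRAB matches in red, others in blue and chromosome 17 genes as triangles. Black bars are medians of other genes in the same GC range and dotted lines mark 0.322 in either direction; in hippocampus the points above the line crowd below 42% GC, and red triangles are the highest of them.

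Of the 12 Zfp-named genes higher at 1.5-fold in hippocampus, 8 lay on chromosome 17, all with a KRAB match. Of 16 Zfp-named genes on that chromosome, 10 were called higher in F1m-GCS and the median log2 ratio was 0.55. All 10 had a KRAB match, and none of the genes there without a match was called. On all other chromosomes 23 of 145 were higher (15.9%) with a median of 0.09. Within the lowest of the 4 GC groups, the 9 chromosome 17 genes ran from 0.47 to 0.89 with a median of 0.69, and the 32 genes elsewhere from 0.02 to 0.73 with a median of 0.35 and 19 higher. The 11 KRAB genes of chromosome 17 had a median of 0.69, or 0.55 against genes of like length, level and GC, and the 47 KRAB genes elsewhere 0.15, or 0.09. Those 11 genes had a median GC of 38.7%, and the lowest of the 5 GC groups also holds genes of higher GC. The match on GC is therefore partial.

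Genes of chromosome 17 with other names lay around 0. Among 466 genes there without a Zfp name and with at least 200 reads in both hippocampus libraries, the median was -0.0094, the range -0.42 to 0.45, 11 were called higher (2.36%) and 0 were at 1.5-fold. The 23 Zfp-named genes under the same minimum had a median of 0.42, with 12 called higher (52.2%) and 9 at 1.5-fold.

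**Figure D3:**
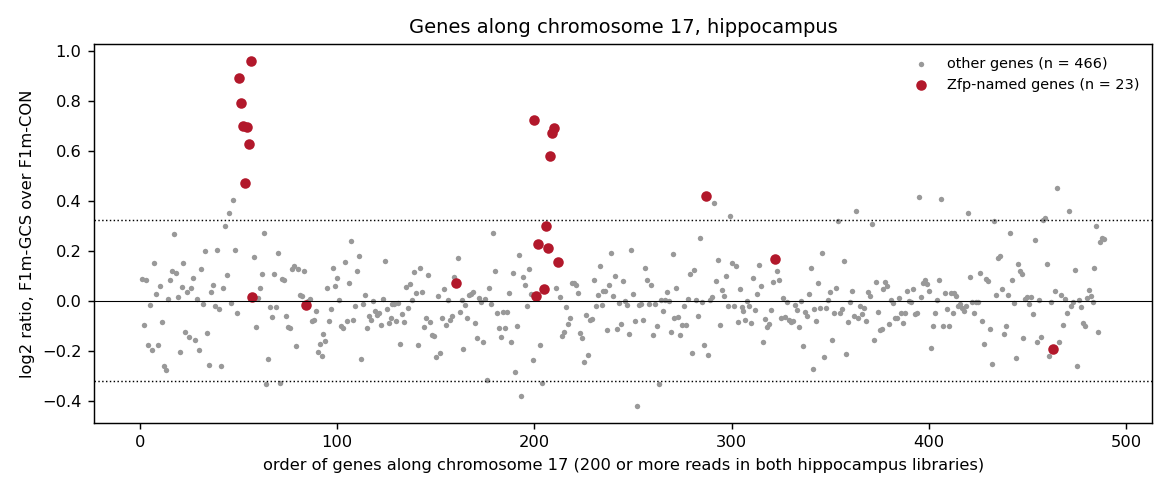
Log2 ratio of F1m-GCS to F1m-CON (y axis) for genes with at least 200 reads in both hippocampus libraries, in their order along chromosome 17 (x axis, rank), with 23 Zfp-named genes in red and 466 other genes in grey. Dotted lines mark 0.322 in either direction; the red points above 0.4 fall in 2 groups and 1 single gene, and grey points reach at most 0.45.

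Neighbouring Zfp-named genes were grouped into runs with gaps under 1 Mb between starts, and 7 runs held at least 5 of the 161 genes. The run at chr17:21008941-23599487 (chromosome 17 group A, mm10) spans 2.59 Mb and 20 Zfp-named genes, 6 of which passed the read minimum, all 6 with a KRAB match. All 6 were higher in F1m-GCS, with a median log2 ratio of 0.70 and a range of 0.47 to 0.89. No gene of another name in that run had 200 reads in both hippocampus libraries. With the minimum lowered to 50 reads in both hippocampus libraries, 16 genes of the run were measured, all 16 had a ratio above 0 and 13 were called higher, from 0.02 for Zfp13 to 1.34 for Zfp52.

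Zfp160 (chr17:21008941-21028852, plus strand) had 291 reads in F1m-CON, 521 in F1m-GCS, 517 in HT22 CON and 313 in HT22 SUP. The F1m-GCS library was the higher of the hippocampus pair, with a log2 ratio of 0.89 (0.68 to 1.11), and HT22 SUP the lower of the HT22 pair once depth was scaled, at -0.24 (-0.45 to -0.03). Zfp948 (chr17:21567046-21588697, plus strand) had 228, 381, 1905 and 1044 reads in the same order. Its ratios were 0.79 (0.55 to 1.04) in hippocampus and -0.38 (-0.49 to -0.27) in HT22, so it was called higher in the tissue and lower in the line. Zfp943 had 471, 630, 543 and 293 reads and was the other gene called in those opposite directions, with ratios of 0.47 (0.30 to 0.65) and -0.40 (-0.62 to -0.20).

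Zfp942 had 313 and 490 reads in F1m-CON and F1m-GCS, a log2 ratio of 0.70 (0.49 to 0.91). Zfp944 (chr17:22337989-22361400, minus strand) had 204 and 319 reads, 0.69 (0.44 to 0.96), and Zfp945 had 300 and 447 reads, 0.63 (0.42 to 0.85). In HT22 their ratios were -0.15, -0.08 and -0.02, none called. These are KRAB genes whose DNA targets are not described here.

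Genes of the same run that missed the minimum were chosen here after their values were seen. Zfp40 had 346 and 649 reads in F1m-CON and F1m-GCS, a log2 ratio of 0.96 (0.77 to 1.15), and 246 and 194 reads in the HT22 libraries. Zfp946 had 161 and 327 reads, 1.07 (0.80 to 1.36), and Zfp760 had 181 and 334, 0.93 (0.67 to 1.21). Zfp758, which starts beside Zfp944 on the opposite strand, had 129 and 252 reads, 1.01 (0.71 to 1.34). In HT22, 17 genes of the run had at least 50 reads in both libraries, with a median of -0.24, 7 lower and 2 above 0.

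A second run, chr17:32771236-33631779 (group B), held 5 of the 161 genes, of which 3 were higher in F1m-GCS, with a median of 0.67 and a range of 0.02 to 0.72. With 50 reads in both hippocampus libraries, 13 of its Zfp-named genes had a median of 0.21 and 4 were higher, so the shift was less even there. Its 3 other well-counted genes had a median of -0.18 and a range of -0.33 to 0.05. Zfp871 had 746, 1188, 597 and 767 reads in F1m-CON, F1m-GCS, HT22 CON and HT22 SUP. It was higher in both treated libraries, with log2 ratios of 0.72 (0.59 to 0.86) and 0.84 (0.69 to 1.00). Its neighbours Zfp81 and Zfp101 had hippocampus ratios of 0.67 and 0.69 and HT22 ratios of -0.26 and -0.15, while Zfp799 had 0.02 and -0.48.

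On chromosome 7, the run at chr7:41633203-43618285 (group C) held 5 KRAB genes with a median of 0.35, a range of 0.23 to 0.48 and 3 higher. The run at chr7:29768552-30169727 (group B) had a median of 0.19 and 0 of 5 higher. The 5 genes of chr7:24081924-25227507 (group A) had a median of -0.11, and the 7 of chr7:127233061-127885996 (group D) a median of -0.07 with 1 lower. Group D is rich in GC, with a median of 58.2%. The run on chromosome 15, chr15:75616679-76918010, had a median of 0.10 over 5 genes. In HT22 group D had the highest median of the 7 runs, 0.19 with 2 of 7 higher, and the others lay between -0.21 and -0.05.

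**Figure D4:**
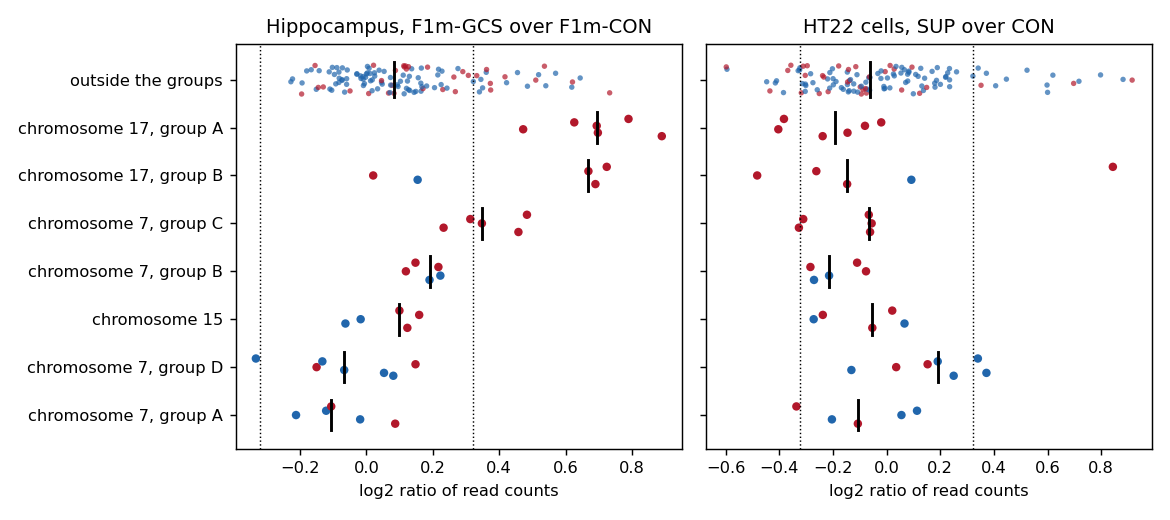
Log2 ratio of read counts (x axis) of Zfp-named genes in 7 runs of neighbouring genes and of the genes outside them (rows), with KRAB matches in red, others in blue, a black bar at each median and dotted lines at 0.322 in either direction. Both chromosome 17 runs have the highest medians in hippocampus, 0.70 and 0.67, and medians below 0 in HT22.

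Promoter sequences from RefSeq (GRCm38.p6), 250 bases before to 50 after the annotated start, were matched by symbol for 130 of the 161 genes. The windows of 3 genes of chromosome 17 group A, of Zfp445, which was higher in both treated libraries, and of Zfp771, which went in opposite directions, are shown with their CpG dinucleotides in capitals. They lie at chr17:21008691-21008990 (plus), chr17:21566728-21567027 (plus), chr17:22361351-22361650 (minus), chr9:122865957-122866256 (minus) and chr7:127244276-127244575 (plus). The RefSeq start of Zfp445 lies outside the span that the deposited table gives for this gene.
Zfp160: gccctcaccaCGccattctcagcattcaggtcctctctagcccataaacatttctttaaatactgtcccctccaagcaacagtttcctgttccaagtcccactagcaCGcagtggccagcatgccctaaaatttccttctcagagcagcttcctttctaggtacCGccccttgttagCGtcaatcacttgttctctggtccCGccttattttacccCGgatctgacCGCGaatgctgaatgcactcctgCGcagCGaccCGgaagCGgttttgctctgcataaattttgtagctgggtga
Zfp948: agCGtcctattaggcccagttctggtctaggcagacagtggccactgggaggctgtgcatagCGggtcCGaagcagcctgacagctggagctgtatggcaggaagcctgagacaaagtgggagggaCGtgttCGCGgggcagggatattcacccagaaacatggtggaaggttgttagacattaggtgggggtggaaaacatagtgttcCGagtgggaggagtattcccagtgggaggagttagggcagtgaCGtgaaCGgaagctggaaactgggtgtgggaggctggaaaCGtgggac
Zfp944: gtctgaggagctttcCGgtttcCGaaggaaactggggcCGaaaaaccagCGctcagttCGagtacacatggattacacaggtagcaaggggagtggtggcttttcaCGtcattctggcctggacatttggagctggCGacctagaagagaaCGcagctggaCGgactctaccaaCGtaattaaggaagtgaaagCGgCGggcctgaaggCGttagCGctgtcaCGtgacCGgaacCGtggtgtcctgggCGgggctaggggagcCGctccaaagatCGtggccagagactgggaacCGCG
Zfp445: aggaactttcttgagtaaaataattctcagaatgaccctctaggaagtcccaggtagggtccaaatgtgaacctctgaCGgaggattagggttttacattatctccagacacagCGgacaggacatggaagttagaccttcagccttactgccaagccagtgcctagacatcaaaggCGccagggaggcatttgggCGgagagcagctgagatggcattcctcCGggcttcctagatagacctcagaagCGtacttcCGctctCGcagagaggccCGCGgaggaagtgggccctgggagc
Zfp771: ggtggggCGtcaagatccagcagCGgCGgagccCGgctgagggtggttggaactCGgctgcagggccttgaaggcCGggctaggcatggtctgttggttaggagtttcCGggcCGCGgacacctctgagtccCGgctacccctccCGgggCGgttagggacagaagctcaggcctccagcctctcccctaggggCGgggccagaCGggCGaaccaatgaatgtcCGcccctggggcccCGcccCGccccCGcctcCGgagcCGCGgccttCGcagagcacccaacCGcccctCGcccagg
These windows hold 12, 10, 22, 10 and 25 CpGs. The median was 13 CpGs in 52 KRAB genes and 21.5 in 78 without a KRAB match, against 23 in 5993 genes with 200 reads in each library and 14 in all 15649 promoters matched to the tables.

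The GC box GGGGCGGGG, searched on both strands, was in 1 of the 52 KRAB promoters (1.92%) and in 21 of the 78 others (26.9%). It was in 24.6% of the well-counted genes and 16.2% of all matched promoters. None of the 30 promoters of genes called higher in hippocampus held it, and 22 of the 100 other Zfp-named promoters did. CCAAT was in 43.1% of Zfp-named promoters and 38.9% of well-counted genes, and in 0 of the 6 promoters of chromosome 17 group A. TATAAA was in 10.0% against 5.72%, and CCGGAAG, an Ets-type sequence, was in 26 of 130 (22.01% of well-counted genes). A match is a description of these letters in this window.

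Outside chromosome 17, Zfp120, a KRAB gene of chromosome 2, was the highest in hippocampus. It had 206, 331, 672 and 385 reads in F1m-CON, F1m-GCS, HT22 CON and HT22 SUP, with log2 ratios of 0.73 (0.48 to 1.00) and -0.318 (-0.50 to -0.14), the latter just short of the call. At the other end Zfp771 was the only one of the 161 genes called lower in hippocampus. It had 1310, 1001, 730 and 661 reads, with ratios of -0.33 (-0.45 to -0.21) in hippocampus and 0.34 (0.19 to 0.49) in HT22, and with 68.67% GC it lay at the top of the GC range. The next lowest hippocampus ratios were those of Zfp395, -0.23, Zfp511, -0.22, Zfp428, -0.21, Zfp1, -0.20, Zfp36l2, -0.19, Zfp703, -0.18, and Zfp746, -0.17, none called.

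Across both comparisons, 6 genes were called higher in both treated libraries, 2 were higher in hippocampus and lower in HT22, 1 was lower in hippocampus and higher in HT22, and 0 were lower in both. Over all 7801 genes the shares were 1.36%, 0.205%, 0.0385% and 0.0897%. Since more Zfp-named genes than others were called in hippocampus, these joint shares are read as no result of their own: 6 of the 33 higher in hippocampus were higher in HT22, and 106 of the 342 among all genes. Another 25 were called in hippocampus alone (all higher), 25 in HT22 alone (10 higher, 15 lower) and 102 in neither. Over all 7801 genes, 2.82% were higher and 0.872% lower in hippocampus alone. In HT22 alone 7.18% were higher and 8.77% lower, and 78.7% were called in neither. Spearman's rho between the hippocampus and HT22 ratios was -0.051 over the 161 genes and 0.184 over the 7640 others, given as a description. The 6 genes higher in both were Zfp329, Zfp369, Zfp445, Zfp462, Zfp644 and Zfp871.

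**Figure D5:**
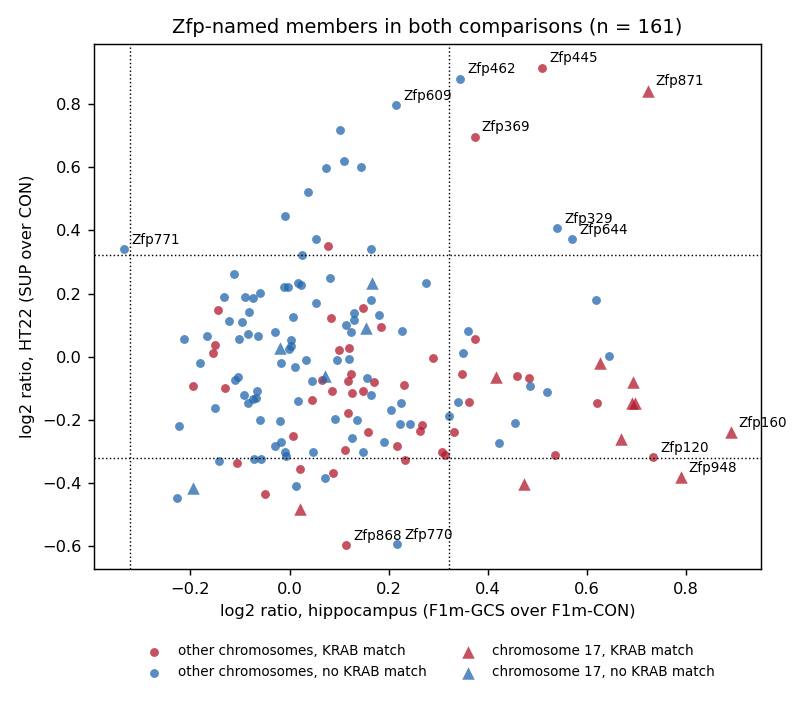
Log2 ratio in HT22 (y axis, SUP over CON) against that in hippocampus (x axis, F1m-GCS over F1m-CON) for the 161 Zfp-named genes, with KRAB matches in red, others in blue and chromosome 17 genes as triangles. Dotted lines mark 0.322 in either direction; 6 genes lie in the upper right field, and the chromosome 17 genes far to the right lie at or below 0 in HT22, apart from Zfp871.

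Genes that silence retroelements or guard imprints made up a list of 9, of which 4 passed the minimum. All 4 were called higher in hippocampus, against 4.38% of all 7801 genes and 36.2% of the 58 Zfp-named genes with a KRAB match. Zfp57, Zfp445 and Zfp932 are among those 58, while Gm15446 carries no Zfp name and is not one of the 161 genes. The list was chosen with earlier results known, and its other members were not all higher: Zfp568, needed for placental and embryonic growth, had 171 and 172 reads in F1m-CON and F1m-GCS and a log2 ratio of 0.06 (-0.25 to 0.38). Zfp445, which with Zfp57 keeps DNA methylation at imprinting control regions, had 1763, 2419, 375 and 507 reads in F1m-CON, F1m-GCS, HT22 CON and HT22 SUP. Its log2 ratios were 0.51 (0.42 to 0.60) and 0.92 (0.72 to 1.12), the latter the highest of the 161 genes in HT22. Zfp57 had 396, 510, 958 and 655 reads, with ratios of 0.42 (0.23 to 0.61) and -0.06 (-0.21 to 0.08).

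Zfp932 and Gm15446, closely related KRAB genes that bind retrotransposon sequences, had hippocampus ratios of 0.54 and 0.56 and HT22 ratios of -0.31 and 0.17. Zfp932 shares 55.5% of its coding 50-base words with other genes, most with Gm15446, so how reads were divided between them is uncertain. Zfp809, which silences murine leukaemia virus sequences, missed the minimum with 222, 307, 175 and 117 reads. Zfp819 had no read in any library, and Zfp708 had 66 and 132 reads in F1m-CON and F1m-GCS.

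In hippocampus, the genes of the machinery that KRAB proteins recruit had a median closer to 0 than that of the KRAB genes. Of 20 listed corepressor genes 18 passed the minimum, with a median of 0.04 in hippocampus and 2 higher, where 4.38% of all genes were. In HT22 their median was 0.05 and 4 were higher, where 8.58% of all genes were. Trim28 had 4984, 4639, 6978 and 4994 reads, with log2 ratios of -0.05 (-0.11 to 0.01) and 0.00 (-0.05 to 0.05). Setdb1 had ratios of -0.01 and -0.31. The higher genes in hippocampus were Atrx, a chromatin remodeller, at 0.58, and Mphosph8, a HUSH complex subunit, at 0.35. In HT22 they were Atrx at 1.02, the NuRD remodellers Chd4 at 0.51 and Chd3 at 0.44, and Cbx5, which encodes HP1 alpha, at 0.40. Atrx, Chd4 and Chd3 lie in the longest of the 10 length groups. Other genes of that group had medians of 0.11 in hippocampus and 0.30 in HT22. The part of length in these counts was not tested.

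Among promoter- and chromatin-binding genes, 12 of 13 passed the minimum, with medians of 0.07 in hippocampus, 3 higher, and -0.11 in HT22, 2 higher and 1 lower. Of all genes, 4.38% were higher in hippocampus, and 8.58% were higher and 9.06% lower in HT22. Zfp462, a protein of heterochromatin in embryonic stem cells, had 1531, 1873, 769 and 1014 reads, with log2 ratios of 0.34 (0.25 to 0.44) and 0.88 (0.75 to 1.02). Zfp644, a partner of the H3K9 methyltransferases G9a and GLP, had 1441, 2061, 1166 and 1079 reads, with ratios of 0.57 and 0.37. Zfp462 and Zfp644 are the 2 called higher in HT22. Their coding lengths of 7488 and 3972 bases fall in the longest of the 10 length groups. Other genes of that group had an HT22 median of 0.30, so this count is not read as a trait of the list. Zfp148, which binds GC-rich promoters, was at 0.34 in hippocampus and -0.14 in HT22. Zfp410, an activator of Chd4, was the lower gene in HT22, with 975 and 524 reads and a ratio of -0.41 (-0.57 to -0.26). Zfp143, an activator of many housekeeping promoters, was called in neither, at -0.07 and -0.11, and so was Zfp281, at 0.20 and -0.17.

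Genes known from nervous system development passed the minimum in 9 of 14 cases, with medians of 0.10 and 0.18. Among these 9, 1 was higher in hippocampus and 4 in HT22, where 4.38% and 8.58% of all genes were. Zfp292 was the one of these 9 called higher in hippocampus, with 1040 and 1539 reads and a log2 ratio of 0.62 (0.51 to 0.73). The HT22 genes were Zfp609, which acts with the cohesin loader Nipbl in cortical progenitors, at 0.80 (0.66 to 0.94), Zfp407 at 0.72, Zfp608 at 0.62 and Zfp335, a regulator of neural progenitor growth, at 0.60 (0.40 to 0.81). Their hippocampus ratios were 0.21, 0.10, 0.11 and 0.07. All 4 are long, with coding lengths of 4014 to 6741 bases, in the longest of the 10 length groups. Other genes of that group had an HT22 median of 0.30, so the count is not read as a trait of this list. Of the 5 that missed the minimum, 4 were all but absent from HT22, with at most 5 reads in either library. In hippocampus 2 of these 4 passed the fold for a call: Zfp711, with 225 and 394 reads and a ratio of 0.86 (0.62 to 1.11), and Zfp804a, with 883 and 1116 reads and 0.39 (0.26 to 0.52). Zfp423 and Zfp536 had ratios of 0.06 and 0.04 there.

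Coding length moved with the HT22 ratio. Split into 4 equal groups by length, the 40 longest Zfp-named genes had a median of 0.14 with 12 higher, and the other groups had medians of -0.09, -0.14 and -0.11 from short to long. Against genes of like length and level, those 40 had a median of -0.0045. In the longest of 10 length groups, 17 Zfp-named genes had an HT22 median of 0.32, 8 of them higher, and the other genes of that group had a median of 0.30. The part of length in the ratios of Zfp462, Zfp609, Zfp407, Zfp608, Zfp142, Zfp335 and Zfp644 was not tested. Zfp445 and Zfp871, also among the highest in HT22, have coding lengths of 2961 and 1848 bases.

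The lowest HT22 ratios belonged to Zfp868, a KRAB gene with 666 and 314 reads in CON and SUP, and Zfp770, with 557 and 263, both at -0.60. Zfp799, Zfp395 and Zfp212 followed at -0.48, -0.45 and -0.44. In hippocampus none of these 5 genes was called, from -0.23 for Zfp395 to 0.22 for Zfp770. Zfp36l2, which speeds decay of mRNAs with AU-rich elements, had 865, 728, 3770 and 2021 reads, with ratios of -0.19 (-0.34 to -0.05) and -0.41 (-0.49 to -0.34). Its relative Zfp36l1 was at 0.16 and 0.18, and Zfp36 missed the minimum with 154 reads in F1m-GCS.

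RNA-binding and processing genes had medians of 0.10 in hippocampus and 0.01 in HT22 over 8 genes. Of these, 0 were called higher in either comparison, against 4.38% and 8.58% of all genes, and 1 lower in HT22, against 9.06%. Zfp207 (BuGZ), a spindle assembly protein, had 4661, 5031, 7217 and 4739 reads and log2 ratios of 0.16 and -0.12. Zfp106 was at 0.11 and 0.10 and Zfp326, part of a complex that acts on splicing and transcript elongation, at 0.18 and 0.13. The lower gene, Zfp706, had 2253 and 1281 reads in the HT22 libraries and a ratio of -0.33, but 92.3% of its coding 50-base words also occur in other genes, most in Gm10193, so its count is uncertain. The ligases Zfp91, Zfp598, which acts on collided ribosomes, and Zfp451 had ratios of 0.00, -0.02 and 0.02 in hippocampus and 0.04, 0.03 and 0.23 in HT22.

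On the deposited RPKM scale, which divides by coding length and library size, the levels were low, with a median of 11.3 in hippocampus and 11.9 in HT22, against 26.6 and 31.9 for all well-counted genes. Zfp706 stood highest in hippocampus at 945 in F1m-CON and 845 in F1m-GCS, then Zfp365 at 312 and 288, Zfp664 at 160 and 149, Zfp740 at 153 and 145, and Zfp91 at 98.1 and 97.1. In HT22 the order was Zfp706 at 388 in CON and 265 in SUP, Zfp740 at 320 and 219, Zfp207 at 193 and 152, Zfp664 at 120 and 93.1, and Zfp36l2 at 103 and 66.5. The gaps from Zfp706 to the next gene exceed the difference between its 2 libraries in hippocampus, while in HT22 Zfp706 in SUP lay below Zfp740 in CON. RPKM divides by uniquely mapped reads, of which 72.86% in HT22 CON and 63.12% in SUP were in genes. Values in SUP are therefore lower on this scale than in the ratios above, and CON and SUP are not directly comparable here.

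A smaller share of Zfp-named genes than of others lay 2-fold apart between the tissue and the line. HT22 RPKM was at least 2-fold above hippocampus RPKM for 24 of 161 (14.9%) and at least 2-fold below for 13 (8.07%), against 28.9% and 15.8% of the 7640 other genes. Among the KRAB genes 16 of 58 were higher in HT22 and 3 lower. Zfp365, linked to neuronal centrosomes and dendrites, was farthest toward the tissue, with a mean RPKM of 300 in hippocampus and 26.4 in HT22. Zfp948 and Zfp101 were among those farthest toward the line, at 3.93 against 31.4 and 3.96 against 26.5. The read minimum in every library bounds these ratios for genes of low level such as these, and no test of the difference was made.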

How the data were processed

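Poly(A)-selected RNA of 2 hippocampus and 2 HT22 samples, 1 per group, was prepared with TruSeq and sequenced on HiSeq in paired-end mode, per the labels' protocols. The groups follow the source names and, for HT22, the concentration in the titles. The authors used Trim Galore for trimming, TopHat2 for alignment to mm10 (up to 2 mismatches, mapping quality 4 or above), HTSeq for counting and edgeR for their own comparison, per the series' design text. The submitters' processing notes also name CASAVA 1.8, with no role. No strand setting or annotation is named, so reads of overlapping genes on opposite strands cannot be told apart.

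Read counts were deposited unscaled, 1 column per library, per the file headers. Deposited RPKM values divide these counts by coding length and by uniquely mapped reads. The reads in genes were 79.44%, 79.04%, 72.86% and 63.12% of uniquely mapped reads for F1m-CON, F1m-GCS, HT22 CON and HT22 SUP. The deposited log2 fold changes, p-values and false discovery rates were not used.

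Ratios were computed from the counts with TMM scaling in edgeR 4.0.16 (R 4.3.3; factors 0.996 to 1.004), a prior count of 2 and an exact conditional (Clopper-Pearson) 95% counting interval, in Python 3.11.15 with scipy 1.17.1. PCR reads without molecular identifiers are not independent molecules, so the intervals cover counting error only. With 1 library per group no test was made. The functions were tested on simulated data. KRAB matches came from position weights over 40 residues, built from 120 seed windows of these genes, with a score of at least 10. No score lay between 4.5 and 24.3. The weights come from windows that fit a seed pattern and were applied to the longest reading frame alone. A KRAB domain of diverged sequence, or in another reading frame, can therefore count as no match. Reading frames and GC content came from GENCODE M21, which gave a GC value for 7737 of the 7801 genes and a reading frame for 357 of the 362 Zfp-named genes. Of the Zfp-named rows, 5 shared a symbol with another row, and genes were therefore joined by identifier.

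The genes named are the 8 highest and 8 lowest of each comparison, the 5 of highest RPKM in tissue and in line, members of the role lists, genes called in opposite directions and those next to the read minimum. Some genes that this rule takes are given in counts and ranges alone. A gene named for another reason is said to be so. The members, the lists and the rules were chosen with earlier results of these data known. The alternatives tried were scaling by total counts or by DESeq2 1.42.0, a prior count of 0.25 or 10, read minimums of 10, 50 and 500, other matching groups, a 1.5-fold rule and sets without some members.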

Additional observations from a re-analysis of the deposited data

How the results depend on the processing

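The medians over all Zfp-named genes kept their sign under every alternative run, from 0.0528 to 0.1204 in hippocampus and from -0.0913 to -0.0055 in HT22. Of 290 values over sets of genes, 265 stayed within 1.5 times the reported count or within the binomial 95% interval of the reported median over genes. Those 265 include values that could not move. Leaving out genes at least 20 times higher in hippocampus removed no gene, and leaving out Zfp36-family genes took none from the KRAB set or the runs. Asking that the counting interval exclude 0 changed no count of called genes. The runs hold 5 to 7 genes each, so the binomial interval of a run reaches from its lowest to its highest gene. Chromosome 17 group B thus counted as unmoved when its hippocampus median went from 0.6687 to 0.2099 at a minimum of 50 reads. All 480 values of single named genes stayed within their counting intervals. For single genes only the scaling and the prior count were varied. In hippocampus this moved Zfp160 from 0.8898 to values between 0.8717 and 0.8939. Such moves are small against the intervals, so the 480 values test little. Where the read minimum was 500 in each library, 55 genes were left, with medians of 0.0528 in hippocampus and -0.0055 in HT22, 7 and 8 higher, 5 lower in HT22, a difference from like genes of 0.0171 in hippocampus and a KRAB median of -0.0469 in HT22. A minimum of 50 reads gave 61 higher and 3 lower in hippocampus and 50 lower in HT22, of 252 genes, and turned the medians of chromosome 7 groups D and A in hippocampus to 0.0079 and 0.0119. A minimum of 10 reads over both libraries gave 92 higher and 11 lower of 340 in hippocampus and 36 higher and 74 lower of 317 in HT22. The 1.5-fold rule gave 12 and 0 in hippocampus and 9 and 2 in HT22. Set against genes of like length, level and GC, a setting added after the data were seen, the KRAB medians were 0.1118 and -0.0354, against 0.1903 and -0.0465 without GC. Chromosome 7 group C was at 0.1911 in hippocampus (0.3233 without GC) and group B at -0.0640 in HT22 (-0.1055), and chromosome 17 group B turned to 0.1575 in HT22 (-0.0583). The lower minimums test more genes with fewer reads, and the cause of the other moves was not tested.

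Sets without chromosome 17 genes and without genes sharing at least 10% of coding 50-base words were also added after the data were seen, the latter in place of the planned protein identity, which was not run. No paired analysis was possible because each group held 1 library, and for the same reason no replicate could be left out. Depth limits the low genes: 24 Zfp-named genes missed the read minimum through HT22 SUP, the shallowest library, alone.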
